A study of Mus musculus with 16 samples.

Results

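The 7 genes described here are markers and partners of interstitial cells of Cajal, the pacemaker cells of the gut wall: Kit, Kitl, Ano1, Prkcq, Thbs4, Gja1 and Gjc1. They were chosen by name and matched by GRCm38 symbol to the Ensembl identifiers of a count table of 51912 genes, and all 7 matched. RNA came from nuclei of the mouse colon, sorted into neuronal and non-neuronal nuclei, in 16 libraries. All mice were C57BL/6, kept free of specific pathogens, and all carried an AAV9 vector, given 5 weeks earlier, whose CaMKII promoter drives a nuclear-envelope EGFP. Headers in the count table name a project comparing AhR knockout with wild type, which the labels do not explain, while the library names in the same headers give agonist or control. Groups follow the labels. Each mouse received, 14 hours before the nuclei were isolated, either 3-methylcholanthrene, an agonist of the aryl hydrocarbon receptor (AhR), or corn oil. The 4 groups hold 4 libraries each: neuronal (EGFP-positive) nuclei after the agonist, neuronal nuclei after corn oil, non-neuronal (EGFP-negative) nuclei after the agonist, and non-neuronal nuclei after corn oil. The neuronal label therefore means nuclei in which this promoter was active, and every non-neuronal cell of the sampled layer, with any untagged neuron, falls into the other gate. The labels state neither age nor dose nor whether libraries came from separate mice, so the p-values measure only the spread between these libraries, which may be technical.

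Interstitial cells of Cajal lie between nerve endings and smooth muscle and set the rhythm of gut contraction. They depend on the receptor KIT and its ligand, stem cell factor, and their slow waves use calcium release from stores followed by chloride current through the channel ANO1. Gap junctions built of connexins join cells of the muscle wall electrically. The members differ in how specific they are: Kit also marks mast cells, Prkcq also marks T cells, and Kitl, Thbs4 and both connexin genes are made by several cell types.

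Library totals lay between 2663738 and 4902303 counts, and mitochondrial genes took from 1.77% to 42.8% of them. The 2 libraries above 30% were non-neuronal agonist libraries 1 and 2. The sort was visible in the marker lists. The 8 neuronal markers summed to 1975 to 2778 CPM (counts relative to library size) in neuronal agonist libraries and 2070 to 2502 CPM in neuronal corn oil libraries, against 28.6 to 223 and 73.2 to 326 CPM in the non-neuronal agonist and corn oil libraries. Smooth muscle markers were also counted in neuronal libraries, where the 11 of them summed on average to 9.27% of the non-neuronal sum after the agonist and to 9.06% after corn oil, scaled by library size alone. Epithelial markers were high and uneven in the non-neuronal gate. The 6 of them summed to 830 to 3476 CPM after the agonist and 1511 to 10873 CPM after corn oil. The part of epithelial nuclei in the non-neuronal levels was not tested.

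Levels of the members are given as TMM-scaled CPM, scaled together over the 16 libraries, and genes are compared with each other only as CPM per kb of annotated exon. Kit (ENSMUSG00000005672, GRCm38 chr5:75574916-75656722, plus strand) encodes the receptor tyrosine kinase that defines these cells in the gut muscle. After corn oil its level was 2.09, 2.57, 4.11 and 2.88 CPM in the neuronal libraries, against 178, 96.9, 100.2 and 188 CPM in the non-neuronal libraries. The highest neuronal value lay far below the lowest non-neuronal one. Kit was 44.9-fold lower in neuronal nuclei, a log2 fold change of -5.49 (SE 0.42, edgeR quasi-likelihood test, adjusted p = 3.49e-06). After the agonist Kit had 0.252, 2.85, 12.2 and 2.78 CPM in neuronal libraries, against 71.0, 53.3, 78.7 and 128 CPM in non-neuronal libraries. The groups again did not overlap, although 1 neuronal library stood above the other 3. The log2 fold change was -4.21 (SE 0.97, edgeR quasi-likelihood test, adjusted p = 0.00924).

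Markers of mast cells, the other KIT-bearing cells of the gut, were present unevenly beside Kit. The 10 mast cell markers summed to 1.19 to 55.9 CPM in non-neuronal libraries after the agonist and 5.21 to 19.4 CPM in those after corn oil. In neuronal libraries they summed to 0 to 2.71 CPM after the agonist and 0 to 5.68 CPM after corn oil. The counts that follow are of non-neuronal libraries. Most of the agonist sum was Hdc, the histamine-forming enzyme, with 297 counts over the 4 libraries against 44 after corn oil. The protease genes were at or near 0: Tpsb2 had 0 counts in both groups, Tpsab1 and Mcpt4 had 0 after the agonist against 5 and 8 counts after corn oil, and Cpa3 had 6 counts after the agonist against 1 after corn oil. The receptor genes had more: Mrgprb2 had 45 counts after the agonist against 56 after corn oil, Ms4a2 had 26 against 36, and Mrgprb1 had 28 against 7. Kit had 1162 counts in the same agonist libraries and 1920 in the corn oil libraries. In non-neuronal agonist library 2 the mast cell sum of 55.9 CPM exceeded Kit itself, at 33.2 CPM when scaled by library size alone like the sum. The part of mast cells in the Kit level was not tested.

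Kitl (ENSMUSG00000019966, chr10:100015630-100100416, plus strand) encodes stem cell factor, the ligand of KIT, which neurons, smooth muscle and other cells can make. After corn oil it had 8.12, 17.7, 14.7 and 13.6 CPM in neuronal libraries, against 59.8, 54.1, 36.2 and 137 CPM in non-neuronal libraries. The groups did not overlap, but the fold was the smallest among the 6 members tested. Kitl was 5.01-fold lower in neuronal nuclei (log2 fold change -2.33, SE 0.48, edgeR quasi-likelihood test, adjusted p = 0.00286). After the agonist it had 4.29, 2.41, 9.34 and 18.6 CPM in neuronal libraries, against 44.2, 127, 150.4 and 170.4 CPM in non-neuronal libraries, a log2 fold change of -3.83 (SE 0.78, adjusted p = 0.00446).

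**Figure D1:**
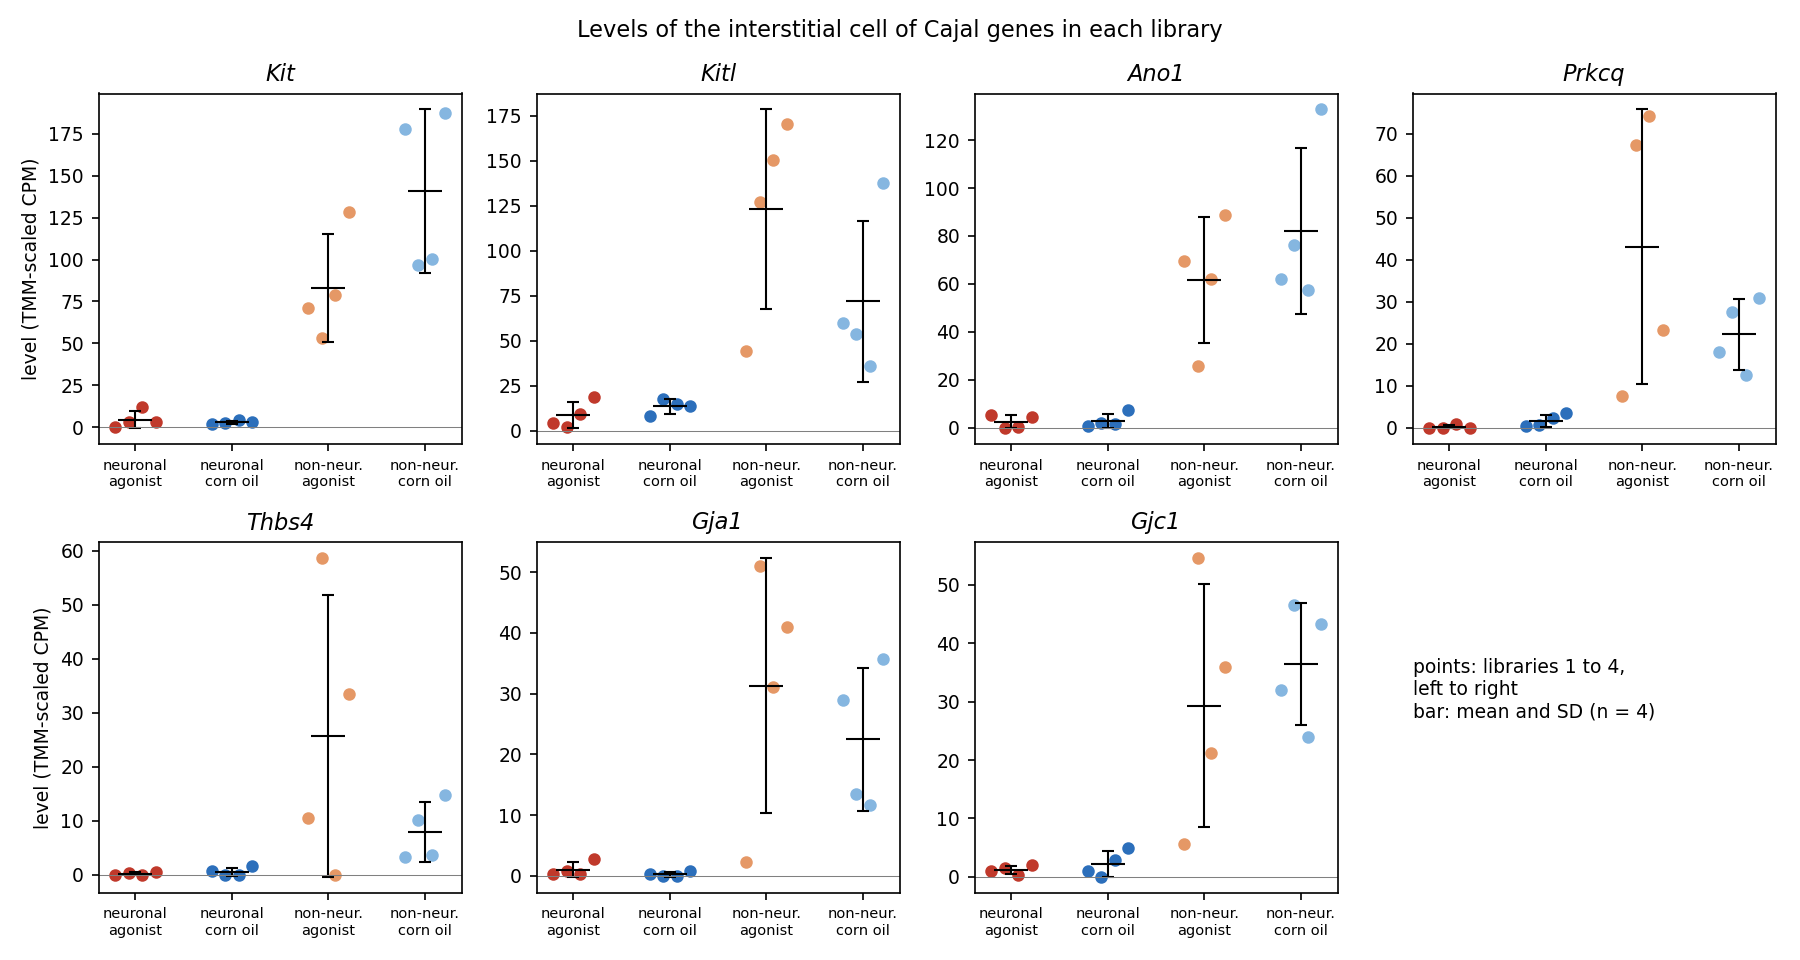
Level of each of the 7 genes in every library, in TMM-scaled CPM on a linear axis that differs between panels. Points are libraries 1 to 4 of each group from left to right, and bars give the mean and SD of 4 libraries. The neuronal groups sit near 0 in each panel, and Thbs4 in 1 non-neuronal agonist library is also at 0.

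The proportion of ligand to receptor was taken within each library. Per kb of exon, Kitl over Kit was 25.6, 1.28, 1.15 and 10.1 in neuronal agonist libraries and 5.84, 10.4, 5.41 and 7.13 in neuronal corn oil libraries. In non-neuronal libraries it was 0.938, 3.60, 2.88 and 1.999 after the agonist and 0.506, 0.841, 0.545 and 1.10 after corn oil. Neuronal corn oil libraries all held several times more Kitl than Kit and lay above every non-neuronal library. After the agonist the gates overlapped, since 2 neuronal libraries had ratios below 3 of the 4 non-neuronal ones, and the neuronal ratio of 25.6 rests on 1 Kit count. In non-neuronal libraries the agonist values were mostly above the corn oil values, and the groups overlapped through agonist library 1, which also had the highest mitochondrial share. The ratio was read off after the levels had been seen and was not tested.

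**Figure D2:**
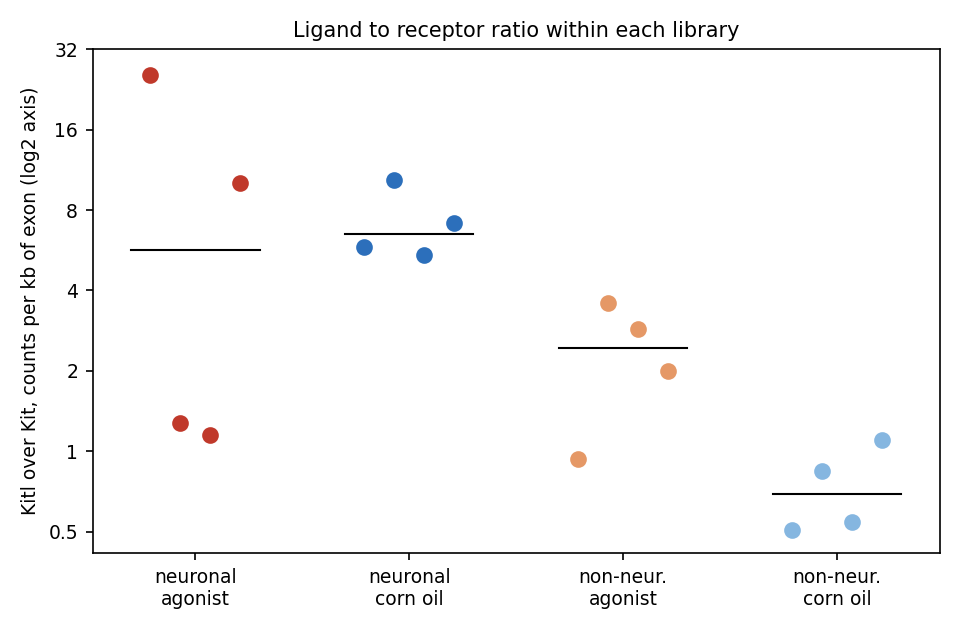
Ratio of Kitl to Kit, each as counts per kb of exon, in every library on a log2 axis. Points are libraries 1 to 4 from left to right and lines are group medians: 5.69 in neuronal agonist, 6.48 in neuronal corn oil, 2.44 in non-neuronal agonist and 0.693 in non-neuronal corn oil libraries.

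The agonist used here acts through AhR, a transcription factor whose DNA sites share the core GCGTG, so the starts of the members were searched for that core on both strands. RefSeq promoter windows on GRCm38.p6, 300 bases from 250 before to 50 after a start, were matched for 6 of the 7 genes. The core was found in 5 of them: Kit, Kitl, Prkcq, Gja1 and Thbs4. It was not found in the Ano1 window, chr7:144738524-144738823, minus strand. That window lies inside the gene, whose record runs to 144751974, so the outermost annotated start of Ano1 was not searched. Of all 32851 windows, 32.4% held it, and of the 27025 genes with a window, 35.2% held it in any window. The windows of the receptor and its ligand are shown because both are needed for these cells, with that of Prkcq, which holds 2 copies. Capitals mark the core, and each is printed on the strand of its gene.
Kit, chr5:75574737-75575036, plus strand: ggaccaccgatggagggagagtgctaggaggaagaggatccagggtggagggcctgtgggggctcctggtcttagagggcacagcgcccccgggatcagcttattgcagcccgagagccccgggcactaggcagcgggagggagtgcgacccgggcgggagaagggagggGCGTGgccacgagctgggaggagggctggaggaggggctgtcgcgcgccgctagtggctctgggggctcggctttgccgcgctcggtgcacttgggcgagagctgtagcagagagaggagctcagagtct
Kitl, chr10:100015571-100015870, plus strand: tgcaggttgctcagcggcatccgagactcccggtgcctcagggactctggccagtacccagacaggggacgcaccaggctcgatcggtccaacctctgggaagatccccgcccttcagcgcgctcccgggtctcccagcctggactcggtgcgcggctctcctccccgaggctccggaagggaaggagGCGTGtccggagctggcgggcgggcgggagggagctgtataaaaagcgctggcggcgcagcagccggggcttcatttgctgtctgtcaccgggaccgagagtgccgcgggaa
Prkcq, chr2:11172132-11172431, plus strand: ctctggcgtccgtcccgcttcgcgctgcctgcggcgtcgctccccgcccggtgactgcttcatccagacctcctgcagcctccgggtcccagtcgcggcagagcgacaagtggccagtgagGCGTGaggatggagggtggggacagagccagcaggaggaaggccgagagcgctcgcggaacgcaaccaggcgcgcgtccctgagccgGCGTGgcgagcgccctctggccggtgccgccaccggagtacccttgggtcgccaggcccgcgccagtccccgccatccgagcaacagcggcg
Counted from the RefSeq start of its window, the core begins 80 bases upstream in Kit, 62 bases upstream in Kitl, and 129 and 42 bases upstream in Prkcq. These starts lie inside the gene coordinates given for each gene. The Kitl core and the whole Prkcq window also lie inside those coordinates, not before them. Their GC content was 69%, 68.7% and 73%, against a median of 52.7% over all windows. In Gja1 and Thbs4 the core lies on the other strand, 97 and 151 bases upstream. A match is a string of letters in a window, and no binding was measured here.

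Ano1 (ENSMUSG00000031075, chr7:144588549-144751974, minus strand) encodes the calcium-activated chloride channel that carries the pacemaker current. After corn oil it had 0.524, 1.80, 1.45 and 7.32 CPM in neuronal libraries, against 61.8, 76.2, 57.4 and 133 CPM in non-neuronal libraries. The groups did not overlap. Ano1 was 27.7-fold lower in neuronal nuclei (log2 fold change -4.79, SE 0.69, edgeR quasi-likelihood test, adjusted p = 0.000253). After the agonist it had 5.29, 0, 0.260 and 4.44 CPM in neuronal libraries, against 69.5, 25.7, 62.0 and 88.7 CPM in non-neuronal libraries, a log2 fold change of -4.65 (SE 1.19, edgeR quasi-likelihood test, adjusted p = 0.0168). An antisense gene, Gm44930, overlaps Ano1, and since the strand setting of the counting is not given, reads of the pair cannot be told apart. Per kb, Ano1 over Kit ranged from 0.689 to 1.40 in the non-neuronal agonist libraries and from 0.495 to 1.12 in the non-neuronal corn oil libraries.

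Prkcq (ENSMUSG00000026778, chr2:11172108-11301222, plus strand) encodes protein kinase C theta, a kinase of T cell receptor signalling that also serves as a marker of interstitial cells of Cajal. After corn oil it had 0.262, 0.513, 2.18 and 3.40 CPM in neuronal libraries, against 18.1, 27.4, 12.6 and 30.8 CPM in non-neuronal libraries. The groups did not overlap, and Prkcq was 12.9-fold lower in neuronal nuclei (log2 fold change -3.69, SE 0.83, edgeR quasi-likelihood test, adjusted p = 0.00499). After the agonist 3 neuronal libraries had 0 and the other 0.779 CPM, against 7.56, 67.2, 74.3 and 23.1 CPM in non-neuronal libraries. The fitted log2 fold change was -7.59 (SE 1.48, edgeR quasi-likelihood test, adjusted p = 0.00337). It rests on 3 neuronal counts against 553, a ratio of 0.00441 with an exact 95% interval for counting error only of 0.000907 to 0.0130.

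T cell markers were present beside Prkcq. The 9 T cell markers summed to 17.7 to 140.8 CPM in non-neuronal agonist libraries and 35.6 to 88.9 CPM in non-neuronal corn oil libraries. Cd3e, part of the T cell receptor complex, averaged 21.1 CPM after the agonist and 28.7 CPM after corn oil there. Non-neuronal agonist library 2 had the highest T cell sum and 41.9 CPM of Prkcq, both scaled by library size alone. Agonist library 3 had the highest Prkcq level, 60.0 CPM on that scale, and a T cell sum of 18.8 CPM. The part of T cells in the Prkcq level was not tested. The annotation places 3 further gene records inside Prkcq, Gm36932, Gm37520 and Gm37766, and reads can be divided between them and Prkcq.

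Thbs4 (ENSMUSG00000021702, chr13:92751590-92794818, minus strand) encodes thrombospondin 4, a matrix protein named among the markers of interstitial cells of Cajal. It was the lowest member by counts and did not pass the expression filter in either comparison of nuclei. After corn oil it had 0.785, 0, 0 and 1.57 CPM in neuronal libraries, against 3.25, 10.1, 3.59 and 14.8 CPM in non-neuronal libraries. After the agonist it had 0, 0.438, 0 and 0.555 CPM in neuronal libraries, against 10.6, 58.7, 0 and 33.6 CPM in non-neuronal libraries. The corn oil groups did not overlap, while the agonist groups did, since 1 non-neuronal library had no count. Summed over libraries, 9 neuronal against 107 non-neuronal counts after corn oil gave a scaled ratio of 0.0711, with an exact 95% interval for counting error of 0.0316 to 0.140.

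Gja1 and Gjc1 encode connexin 43 and connexin 45, subunits of gap junction channels. Gja1 (ENSMUSG00000050953, chr10:56377330-56402513, plus strand) had 0.262, 0, 0 and 0.784 CPM in neuronal corn oil libraries, against 29.0, 13.5, 11.7 and 35.7 CPM in non-neuronal corn oil libraries. The groups did not overlap, and the log2 fold change was -6.19 (SE 1.03, edgeR quasi-likelihood test, adjusted p = 0.000681). It rests on 4 neuronal counts against 311, a scaled ratio of 0.0109 with an exact 95% counting interval of 0.00294 to 0.0281. After the agonist Gja1 had 0.252, 0.876, 0.260 and 2.78 CPM in neuronal libraries, against 2.27, 51.0, 31.1 and 41.0 CPM in non-neuronal libraries. Here the groups overlapped, because non-neuronal agonist library 1 was low. The log2 fold change was -4.88 (SE 1.296, edgeR quasi-likelihood test, adjusted p = 0.0201), and the call was lost without neuronal agonist library 2 (adjusted p = 0.0655) or 3 (adjusted p = 0.0669).

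Gjc1 (ENSMUSG00000034520, chr11:102799579-102819700, minus strand) had 1.05, 0, 2.90 and 4.97 CPM in neuronal corn oil libraries, against 31.95, 46.6, 23.9 and 43.2 CPM in non-neuronal corn oil libraries. The groups did not overlap, and Gjc1 was 15.2-fold lower in neuronal nuclei (log2 fold change -3.92, SE 0.85, edgeR quasi-likelihood test, adjusted p = 0.00393). After the agonist it had 1.01, 1.53, 0.260 and 1.94 CPM in neuronal libraries, against 5.67, 54.6, 21.2 and 35.9 CPM in non-neuronal libraries. Every neuronal library was below every non-neuronal one, with the same library 1 closest. The log2 fold change was -4.61 (SE 1.17, edgeR quasi-likelihood test, adjusted p = 0.0155), and the call was lost without neuronal agonist library 3 (adjusted p = 0.0587). Enteric glia also make connexin 43, and the 7 glial markers summed to 88.4 to 166 CPM in non-neuronal agonist libraries and 87.0 to 111 CPM in non-neuronal corn oil libraries. Of these markers, Erbb3 alone averaged 102 ± 77.7 CPM after the agonist and 63.3 ± 44.0 CPM after corn oil there (TMM-scaled, SD, n = 4 each). From 3 to 6 of the 7 markers had any count in each of these libraries. The part of glia in the connexin levels was not tested.

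Of the 6 members tested, all 6 were lower in neuronal nuclei after corn oil, where 13.5% of the 15285 genes tested were called lower. After the agonist all 6 were again lower, where 6.97% of 14065 genes were. The median log2 fold change of the tested members was -4.36 after corn oil, against -0.11 over all genes tested, and -4.63 after the agonist, against -0.15. These counts and medians carry little weight by themselves, because most members entered the test only through the non-neuronal libraries and so had to be lower. The filter asked for at least 4 of 8 libraries over about 3.11 CPM after corn oil and 2.47 CPM after the agonist, and Kitl alone reached that in all 4 neuronal libraries. All 7 members had non-overlapping groups after corn oil, as did 30.6% of genes tested, and 5 of 7 after the agonist, as did 21.6%. The comparisons are of RNA per library, so fewer cells of a type and less RNA per cell cannot be told apart.

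**Figure D3:**
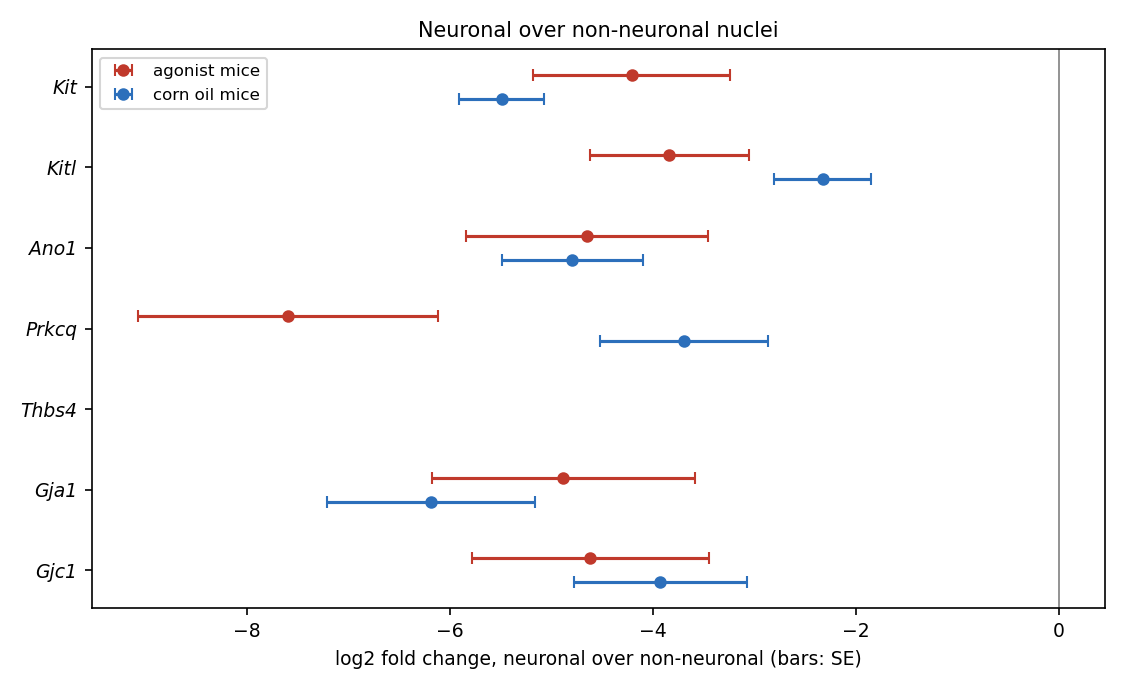
Log2 fold change of neuronal over non-neuronal nuclei for each gene after the agonist and after corn oil, with SE bars from the edgeR fits. All points lie left of 0, from -7.59 to -2.33, and Thbs4 has none because it did not pass the filter.

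The level of each member in the neuronal gate can be set beside that of the smooth muscle markers there, both scaled by library size alone. After the agonist the neuronal mean was 10.3% of the non-neuronal mean for Kitl, 8.16% for Kit, 5.98% for Gjc1, 5.44% for Ano1, 5.02% for Gja1, 1.57% for Thbs4 and 0.726% for Prkcq. After corn oil it was 23.2% for Kitl, 9.51% for Thbs4, 8.87% for Prkcq, 7.68% for Gjc1, 4.27% for Ano1, 2.56% for Kit and 1.47% for Gja1. Kitl stood above the smooth muscle share of 9.27% after the agonist and 9.06% after corn oil, and so did Thbs4 after corn oil, on 9 neuronal counts. Marker lists of other non-neuronal cell types had shares on both sides of these values. After the agonist they ran from 0.720% for epithelial markers to 30.2% for PDGFRA-positive cell and fibroblast markers. After corn oil the same lists gave 0.880% and 26.6%. Kitl lay within both ranges. Both upper ends rest largely on Kcnn3. Its TMM-scaled mean after corn oil was 143 CPM in neuronal libraries and 161 CPM in non-neuronal libraries. After the agonist these means were 147 and 236 CPM. Of the remaining lists, glial markers had the highest share after corn oil, 20.3%, which is below that of Kitl. After the agonist the glial share was 14.6%, above that of Kitl. Within the gate, neuronal corn oil library 4 had the highest smooth muscle sum, 1409 CPM against 405 to 588 CPM in the other libraries of that group, and also the highest level of Ano1, Prkcq, Thbs4, Gja1 and Gjc1, but not of Kit or Kitl. Non-neuronal corn oil library 4 likewise had the highest smooth muscle sum of its group, 16446 CPM against 3888 to 6290 CPM. It also had the highest level of each member except Kit and Gjc1. Kit had 187 CPM there on this scale and 191 CPM in library 1. The non-neuronal agonist group did not follow this: its highest smooth muscle sum, 7707 CPM, was in library 3. That library was highest for Prkcq alone and had no Thbs4 count. On the same scale Kit, Kitl, Ano1, Gja1 and Gjc1 were highest in library 4, and Thbs4 in library 2. In the neuronal agonist group library 4 had the highest sum, 798 CPM. It also had the highest Kitl, Ano1, Thbs4, Gja1 and Gjc1, but not Kit or Prkcq. The part of RNA from smooth muscle in the neuronal values was not tested.

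Ranked per kb of exon in the non-neuronal corn oil libraries, Kit was first with 15.8 ± 5.49 CPM per kb (SD, n = 4), above 91.6% of 18510 genes. Ano1 followed with 13.1 ± 5.57 and Kitl with 12.2 ± 7.59 CPM per kb, and the ranges of these 3 overlapped. Gjc1 had 7.28 ± 2.08 CPM per kb, and its range overlapped that of Kitl but not that of Prkcq, which came next with 3.14 ± 1.19 CPM per kb. Thbs4 with 2.41 ± 1.69 and Gja1 with 2.19 ± 1.15 CPM per kb were lowest, above 33.6% and 30.8% of genes, and neither differed from its neighbour beyond the spread. After the agonist the first place in non-neuronal libraries was held by Kitl with 20.8 ± 9.38 CPM per kb, followed by Ano1 with 9.84 ± 4.22 and Kit with 9.30 ± 3.62. There the ranges of all neighbours in the order overlapped. In neuronal libraries Kitl came first, with 1.46 ± 1.23 CPM per kb after the agonist and 2.29 ± 0.678 CPM per kb after corn oil, and only after corn oil was it clear of the next member's range.

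The comparison of agonist with corn oil asks whether these genes changed within 14 hours of the injection. In non-neuronal nuclei 0 of the 7 members were called, and 0.0135% of 14846 genes were, which is 2 genes. At an unadjusted p under 0.05 the edgeR quasi-likelihood test had 715 genes and no member. DESeq2, at an adjusted p under 0.05, called 35 genes and no member. Kit averaged 82.9 ± 32.2 CPM after the agonist and 141 ± 48.9 CPM after corn oil (SD, n = 4 each), with overlapping libraries. Its log2 fold change was -0.71 (95% interval -1.65 to 0.22, edgeR quasi-likelihood test, adjusted p = 0.954). Kitl averaged 123 ± 55.4 CPM after the agonist and 71.9 ± 44.9 CPM after corn oil, a log2 fold change of 0.82 (95% interval -0.32 to 1.97, adjusted p = 0.954). Receptor and ligand thus had estimates of opposite sign, neither of them beyond the spread.

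Ano1, Prkcq, Thbs4, Gja1 and Gjc1 had no call either. Ano1 averaged 61.5 ± 26.3 CPM after the agonist and 82.1 ± 34.8 CPM after corn oil, with a log2 fold change of -0.38 (95% interval -1.51 to 0.76). Thbs4 had the largest estimate, 1.75 (95% interval -0.94 to 4.43), from agonist libraries that spread between 0 and 58.7 CPM around corn oil libraries of 3.25 to 14.8 CPM. Prkcq had a log2 fold change of 0.99 (95% interval -0.68 to 2.66), Gja1 one of 0.54 (95% interval -1.33 to 2.41) and Gjc1 one of -0.26 (95% interval -1.86 to 1.34). Each of the 7 intervals includes 0 and reaches past a 2-fold change in at least 1 direction. Without the 2 libraries above 30% mitochondrial counts, a choice made after seeing the data, Kit had -0.44 and Kitl 1.15, and no member was called.

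In neuronal nuclei Kit and Kitl alone could be tested for the agonist, and 0 of these 2 were called, as were 0% of 14182 genes. At an unadjusted p under 0.05 there were 711 genes in the edgeR quasi-likelihood test, neither member among them. DESeq2, at an adjusted p under 0.05, called 9 genes. Kit averaged 4.52 ± 5.26 CPM after the agonist and 2.91 ± 0.860 CPM after corn oil (SD, n = 4 each), with a log2 fold change of 0.62 (95% interval -1.49 to 2.73). Kitl averaged 8.66 ± 7.24 CPM after the agonist and 13.5 ± 4.01 CPM after corn oil, with a log2 fold change of -0.65 (95% interval -2.13 to 0.83). The Kit estimate came from library 3, at 12.2 CPM, and without it the log2 fold change was -0.57.

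**Figure D4:**
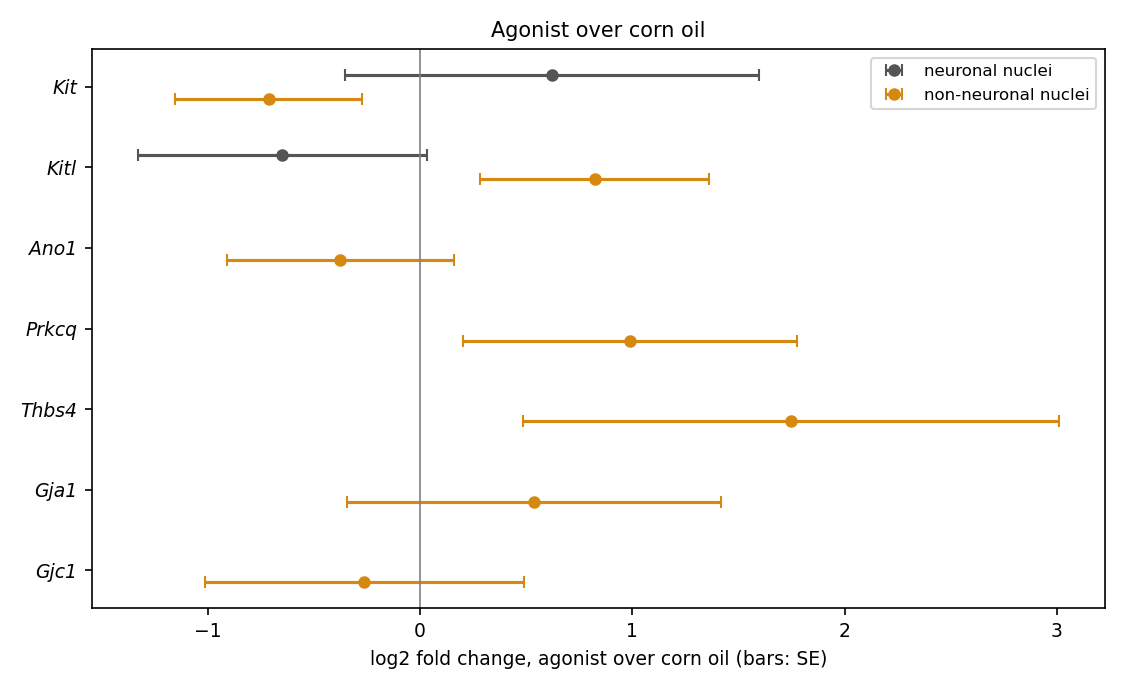
Log2 fold change of agonist over corn oil in neuronal and non-neuronal nuclei, with SE bars from the edgeR fits. Estimates run from -0.71 to 1.75, none was called, and 5 genes have no neuronal point because they did not pass the filter there.

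Whether the response differed between the gates was tested as the neuronal log2 change minus the non-neuronal one. No member was called, 0 of 7, and neither was any of 18566 genes, 0%. The unadjusted p was under 0.05 for 1484 genes in the edgeR quasi-likelihood test. DESeq2, at an adjusted p under 0.05, called 101 genes and no member. Prkcq was the one member among the 1484, with a difference of -3.80 (95% interval -6.86 to -0.74, unadjusted p = 0.0172, adjusted p = 0.538). It was higher after the agonist in 2 of 4 non-neuronal libraries than in any corn oil library, and lower after the agonist on average in neuronal nuclei, where the level rests on 3 counts against 25. Kit had a difference of 1.39 (95% interval -0.49 to 3.26) and Kitl one of -1.42 (95% interval -3.18 to 0.33).

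The lists below are read against the share of all genes called: 11.8% higher and 13.5% lower in neuronal nuclei after corn oil, and 6.67% higher and 6.97% lower after the agonist. Of 9 further genes named as markers of interstitial cells of Cajal, 8 entered the corn oil comparison, in which neuronal nuclei had 1 higher and 3 lower, with a median log2 fold change of -0.18 beside -0.11 over all genes; the 1 higher is near the share over all genes. Etv1, a transcription factor of these pacemaker cells, had a mean of 422 ± 38.1 CPM in neuronal libraries, against 133 ± 65.3 CPM in non-neuronal libraries (SD, n = 4 each, log2 fold change 1.75, edgeR quasi-likelihood test, adjusted p = 0.0013). Lrig1, a brake on receptor tyrosine kinases, had 6.81 ± 1.73 CPM in neuronal libraries, against 73.4 ± 15.8 CPM in non-neuronal libraries (log2 fold change -3.33). Cd44, a hyaluronan receptor, fell by 2.74 on the log2 scale and Slc12a2, a chloride importer, by 1.57. After the agonist 2 of the 8 tested were lower, Lrig1 (-3.94) and Slc12a2 (-1.92), and Etv1 had 1.03 with an adjusted p of 0.199.

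Of 30 KIT signalling genes 27 were tested after corn oil, of which 0 were higher and 2 lower, fewer than the share over all genes would give in either direction, with a median log2 fold change of -0.09 beside -0.11 over all genes. These were Lyn, a SRC family kinase, with -4.01 (SE 0.72), and Gab1, an adaptor protein, with -2.70 (SE 0.41). After the agonist 2 of 27 were lower, which is near the share over all genes. They were Lyn, with -5.97, and the transcription factor Stat3, with -2.19. Of 11 receptors and ligands related to KIT, 7 were tested after corn oil and 2 were lower. Csf1r, the receptor of macrophages, had -5.27, and Pdgfra, which marks the fibroblast-like interstitial cells of the gut wall, had -4.52. Both were lower after the agonist too, with -5.06 and -6.71.

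Slow waves draw on calcium release and refilling. Of 21 calcium store and entry genes, all tested, neuronal nuclei had 2 higher and 9 lower after corn oil, and 1 higher and 3 lower after the agonist. The higher ones were no more than the shares over all genes would give. Ryr2, a ryanodine receptor, averaged 914 ± 71.7 CPM in neuronal corn oil libraries, against 235 ± 120 CPM in non-neuronal ones, a log2 fold change of 2.05 (SE 0.29). Atp2a3, a calcium pump of the store, had 1.14 ± 0.411 CPM in neuronal libraries, against 114 ± 38.1 CPM in non-neuronal ones (log2 fold change -6.51), and Itpr3, a calcium release channel, had -5.25. After the agonist Ryr2 had 1.96, Atp2a3 -7.66 and Itpr2 -1.87.

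Within the families of the members, 2 of 9 other anoctamins, all tested after corn oil, were higher and 2 lower. Ano5 had 109 ± 22.8 CPM in neuronal libraries, against 2.96 ± 1.94 CPM in non-neuronal ones (log2 fold change 5.26), and Ano6, a lipid scramblase, was higher by 1.18. Ano9 had no neuronal count against 835 non-neuronal counts, at least 329-fold lower taking 3 counts over the group as the floor. Ano7 had 6 neuronal against 1568 non-neuronal counts, a scaled ratio of 0.00323 with an exact 95% counting interval of 0.00118 to 0.00705. After the agonist 6 were tested, with 1 higher, Ano5 (4.80), and 1 lower, Ano9.

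Of 8 other protein kinase C genes, all tested after corn oil, 1 was higher and 3 were lower, and the 1 higher is near the share over all genes. Prkce was higher by 1.29, while Prkcd (-5.06) and Prkch (-4.14) were lower, beside -3.69 for Prkcq. After the agonist 0 of 7 were higher and 3 were lower, led by Prkch (-7.19) and Prkcd (-5.00). Thbs1 and Thbs2, the other matrix thrombospondins that passed with a call, had -4.14 and -3.92 after corn oil, and -3.58 and -4.45 after the agonist, 2 of 3 tested each time. Of 21 other connexin and pannexin genes 4 were tested after corn oil. Panx2, a neuronal pannexin, had 195 neuronal counts and none in non-neuronal libraries, at least 54.9-fold higher at a floor of 3 counts over the group, and Gjc3, a glial connexin, had -3.18. After the agonist 3 were tested and 0 called, and Panx1 had -1.03 (adjusted p = 0.629). In the comparisons of agonist with corn oil, and in the difference between gates, 0 genes of any of these lists were called.

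**Figure D5:**
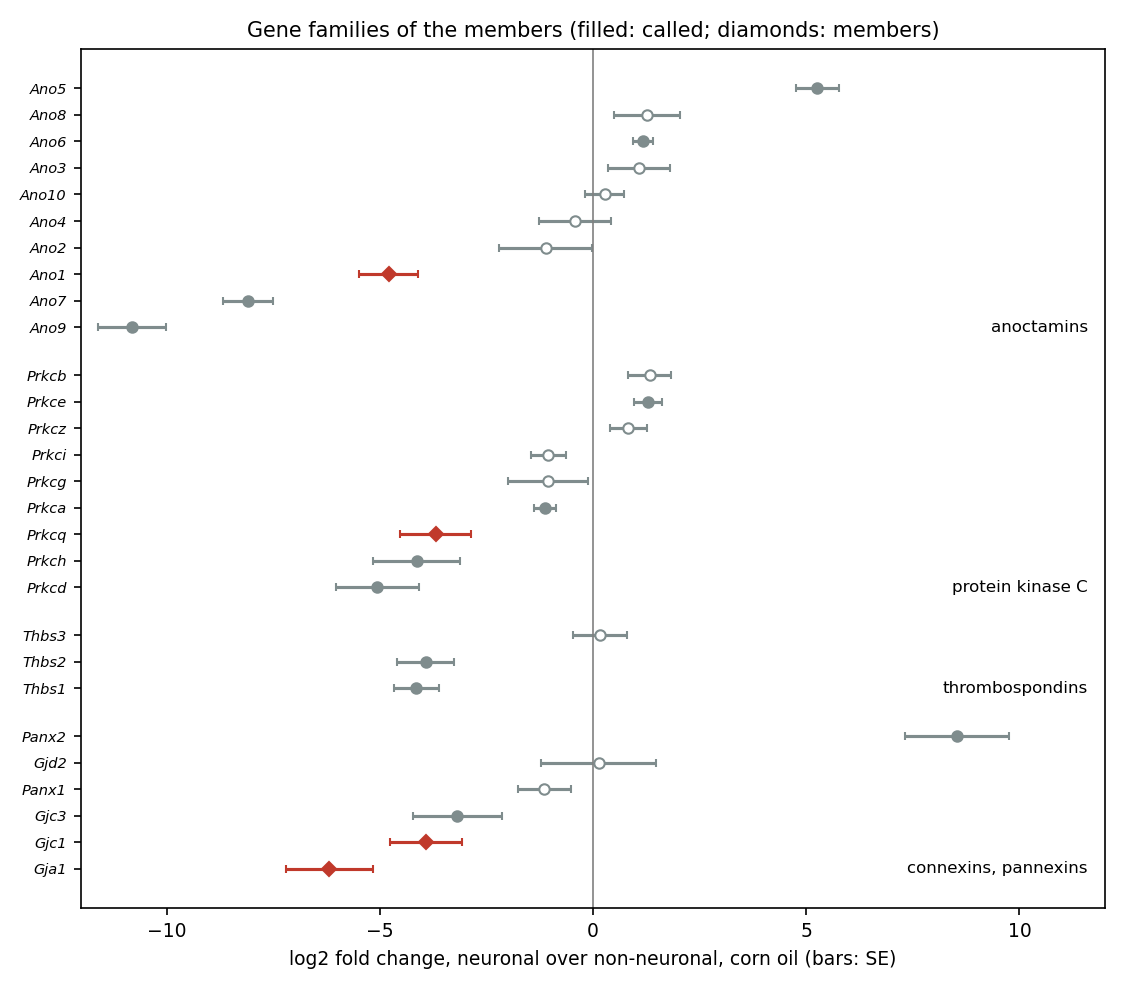
Log2 fold change of neuronal over non-neuronal nuclei after corn oil for the gene families of the members, with SE bars. Red diamonds are members, filled symbols were called, and anoctamins run from Ano5 at 5.26 to Ano9 at -10.82, a fitted value that depends on the prior count since Ano9 had no neuronal count, as does that of Panx2, which had no non-neuronal count.

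Likeness of pattern was measured over the 16 libraries as the root mean square difference of log2 CPM after centring each gene, among 18566 genes. Nearest to Kit were Abi3bp (0.80), Dsg2 (0.82), Fyb (0.83), Col3a1 (0.83) and Itga9 (0.85). Nearest to Ano1 were Prelp (0.59), Adgrf5 (0.85), Hspg2 (0.87), Rgs1 (0.88) and Fn1 (0.90). The members were not each other's nearest genes in general: Kit stood 397th from Ano1, while Gja1 and Gjc1 each stood 12th from the other, at 0.88. All such genes share the large step between the gates, and this is a description of 16 libraries only.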

How the data were processed

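Nuclear RNA was measured in 16 libraries. The deposited table holds expected counts per Ensembl gene, made by the authors with RSEM 1.3.0 and STAR 2.5.2 on GRCm38, per the submitters' processing notes, which also name DESeq2 1.10.1. The strand setting is not given in the sources used here. Expected counts were rounded to whole numbers. Symbols, positions and exon lengths came from GENCODE M21 by identifier.

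Comparisons were fitted in edgeR 4.0.16 (R 4.3.3) with TMM scaling, filterByExpr (minimum count 10, minimum total 15) and robust two-sided quasi-likelihood tests, with calls at an adjusted p (Benjamini-Hochberg, all genes tested) under 0.05. An SE is the log2 fold change divided by the square root of F, and 95% intervals use the t distribution of that fit. Summed CPM of lists are scaled by library size alone. The difference between gates used all 16 libraries, the other comparisons 8. DESeq2 1.42.0 and limma 3.58.1 (voom) were alternatives, and the script was tested on simulated data.

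Named genes were the 7 members, up to 2 called genes per direction with the largest change in each list (the highest gene where none was called), and the 5 nearest to Kit and Ano1. Slc12a2, Cd3e and the mast cell genes were named after their values were seen, as was Etv1 after the agonist. A called gene of the calcium list is not reported here. The members and lists were chosen with earlier results of these data known. No 2 libraries of a group agreed within sampling noise.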

Additional observations from a re-analysis of the deposited data

Results flagged for a closer look

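Among 28 sets of 4 libraries, Dixon's test for 4 values marked 1, Prkcq in neuronal agonist library 3, at 0.779 CPM, where the other 3 libraries had 0. With 3 values at 0 any count in the fourth library would be marked, and the value is 3 counts, so the mark says nothing of that library. Chance alone marks about 1 in 20 sets.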

How the results depend on the processing

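The number of members called stayed within 1.5 times that reported, or at 0, under every alternative run (6 to 7 after corn oil, 4 to 7 after the agonist, with 4 when neuronal agonist library 3 was left out, 0 in the other 3 comparisons). Of 517 member values under alternatives, 497 kept direction and side of the threshold, 3 lost the call and 17 changed sign, none of these called; the cause was not tested. With limma voom, Thbs4 was -0.10 in non-neuronal agonist over corn oil, Kit -0.25 in neuronal nuclei, and the difference between gates -0.59 for Ano1 and 0.48 for Gjc1. Without the libraries above 30% mitochondrial counts, a choice made after seeing the data, that difference was -0.061 for Ano1. Leaving out 1 library gave -0.75 to 0.049 for Gjc1 in non-neuronal nuclei, -0.57 to 1.01 for Kit in neuronal nuclei, and differences of -0.52 to 1.299 for Ano1 and -0.99 to 0.070 for Gjc1. Same-numbered libraries correlated at -0.10 to 0.18 over the pairwise comparisons. Between gates the range was -0.0096 to 0.055 after corn oil and 0.0046 to 0.074 after the agonist. Differently numbered libraries ranged from -0.047 to 0.016 and from -0.058 to 0.041 there. By this measure 3 neuronal libraries after corn oil and 2 after the agonist were nearest to their own number. These weak correlations cannot tell whether numbers pair libraries. With the replicate number as a block, Kit was -0.093 in neuronal nuclei. The difference between gates was then -0.12 for Ano1 and 0.032 for Gjc1, and 0 member calls changed. Thbs4, outside the main tests of nuclei, was -3.51 (adjusted p = 0.0851) after corn oil and -6.41 (adjusted p = 0.00407) after the agonist without a filter. Over all genes, calls after the agonist between gates were 1918, but 2937 with DESeq2, 3324 without a filter and 4590 with all 16 libraries in 1 fit; agonist calls in non-neuronal nuclei were 2, but 35 with DESeq2, 88 without a filter, 11 with all 16 libraries, 0 with voom or library size scaling, 1 without the high mitochondrial libraries, and 0 to 2 leaving out 1 library; in neuronal nuclei 0, but 9 with DESeq2 and 152 without a filter; for the difference 0, but 101 with DESeq2, 110 without a filter, 7 without the high mitochondrial libraries, and up to 9 leaving out 1 library. Library size scaling moved the median of all genes between gates from -0.11 to 0.11 after corn oil and from -0.15 to 0.43 after the agonist. Depth limits the neuronal values, several of which rest on under 10 counts per group.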
